A study of Mus musculus with 8 samples.

Results

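The transcript of Foxj1 and 50 transcripts of ciliary genes were described in mouse embryonic stem (mES) cells with and without Trim71. They make up 51 of the 13558 transcripts in the table. Foxj1 was chosen from its KO and WT values in these same libraries, so its difference is given as a description without a test. The other 50 were chosen by gene symbol only: intraflagellar transport (IFT) proteins, BBS proteins, RFX factors, tectonics, tektins, axonemal dynein subunits, the IFT motors, further transition zone proteins such as Mks1, and Arl13b. All 67 protein-coding RefSeq genes whose symbols meet this rule were looked up, and the 16 that are not among the 51 were not analysed here.

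Cilia are microtubule-based projections of the cell surface. A primary cilium is a single sensory antenna and needs IFT, the BBSome and the transition zone at its base. A motile cilium also carries axonemal dyneins, tektins and radial spokes. Foxj1 is a forkhead transcription factor and a master regulator of motile cilium genes, which it controls together with RFX factors. RFX factors bind the X-box, a motif in the promoters of many genes for cilia.

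The libraries were mRNA-seq of mES cells of strain C57BL/6, labelled male. All carried a conditional Trim71 allele whose last exon can be removed by a tamoxifen-activated Cre expressed from the Rosa26 locus. 4 libraries had the genotype Trimfl/fl (WT) and 4 the genotype Trim-/- (KO), and each group is represented by a pair of clones. Clone E3 gave 3 KO and 2 WT libraries, and clone 1 gave 1 KO and 2 WT libraries. KO cells had received 4-hydroxytamoxifen for 2 days (500 nM in the labels, while the methods state another dose) and were kept for at least 7 days. The labels give no 4-hydroxytamoxifen for WT cells, so the deletion and the earlier drug exposure cannot be told apart. Cells carrying SSEA-1, a surface antigen of undifferentiated mES cells, were enriched before lysis. The labels do not say whether libraries of a clone came from separate cultures, so p-values measure the spread between these libraries, which may in part be technical.

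The values are normalized read counts after the authors' clone correction. The whole reads behind them could be recovered for all 51 members, and library totals ranged from 7607232 to 28129103 reads. Trim71 was at 247 to 793 normalized counts in KO and at 1988 to 2782 in WT. The remaining KO reads can come from the 3 exons that are not deleted. All 8 pluripotent cell markers looked up were measured, and 0 of them had an unadjusted limma p under 0.05 (Pou5f1, Sox2, Nanog, Zfp42, Esrrb, Klf4, Tfcp2l1 and Fut4). Over all transcripts 9.09% had such a p. With libraries paired by day, as described below, 1 of the 8 passed, Klf4, which was higher in KO by 0.73 ± 0.10 (SE, log2, adjusted p = 0.199 in limma). In the paired fit 19.2% of all transcripts passed. Libraries of the same day deviated together, and KO replicate 3 of day 4 stood apart from the other KO libraries in a way that moved with transcript GC content, described below.

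A set of 80-base stretches just upstream of transcription starts is shown first, because they hold letters of the X-box, the motif of RFX factors. The 4 genes are Dnaic2, Tekt2, Mks1 and Pifo. Dnaic2 and Tekt2 alone among the 50 had an unadjusted limma p under 0.05 in the fit of the deposited values on genotype and clone. Mks1 was almost equal in both genotypes. Pifo, a motile cilium gene outside the 51, rose in KO. Each stretch runs 5′ to 3′ on the strand of the gene up to the base before the start, and capitals mark the X-box match.
Dnaic2: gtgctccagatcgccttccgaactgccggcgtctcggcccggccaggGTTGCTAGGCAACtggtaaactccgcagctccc
Tekt2: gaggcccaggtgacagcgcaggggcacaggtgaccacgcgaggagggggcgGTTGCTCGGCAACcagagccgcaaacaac
Mks1: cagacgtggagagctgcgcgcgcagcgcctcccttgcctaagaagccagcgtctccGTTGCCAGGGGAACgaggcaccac
Pifo: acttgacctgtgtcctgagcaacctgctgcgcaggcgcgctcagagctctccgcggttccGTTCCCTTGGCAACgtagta
The stretches are from RefSeq (GRCm38.p6) at chr11:114727339-114727418 (plus strand), chr4:126325689-126325768 (minus), chr11:87853135-87853214 (plus) and chr3:106001498-106001577 (minus). They were chosen for their match: Tekt2 and Pifo each have another annotated start whose 80 bases hold no X-box letters.

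The X-box was searched in the 250 bases upstream of each start, on both strands, as GTTNCNNGGNAAC and as GTTNCNNNGGNAAC. Promoters were at hand for 44 of the 51 members, and not for Foxj1, Ift80, Ift81, Ift122, Dync2li1 and 2 others. The motif stood in 7 of the 44 (15.9%), against 1.45% of all 27025 genes with a promoter. The 7 were Bbs7, Dnaic1, Dnaic2, Ift57, Mks1, Tctn3 and Tekt2. The shorter RFX half-site GTTGCC, which lies in part within the X-box and was also searched on both strands, stood in 14 of 44 (31.8%) against 11.8% of all genes. The forkhead core TGTTTA stood in 6 of 44 (13.6%) against 13.5% of all genes. A match is a description of letters and does not show that a factor binds there.

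In KO replicates 1 to 4, Foxj1 stood at 232, 296, 660 and 391 normalized counts. In the WT replicates, in the same order, it stood at 79.8, 51.6, 120 and 99.3. The lowest KO library (replicate 1) lay well above the highest WT library (replicate 3), and the groups did not overlap.
The 4 KO libraries had a mean of 395 ± 189 and the 4 WT libraries one of 87.7 ± 29.2 (SD), a ratio of 4.50. On the log2(value + 1) scale the fold change was 2.15 ± 0.40 (SE), and its 95% interval ran from 1.21 to 3.09. Only 3 transcripts of the table had a higher fold change. Foxj1 lies on chromosome 11 from 116330704 to 116335499 (GRCm38.p6).

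The reads recovered for Foxj1 were 270, 373, 748 and 270 in KO and 58, 47, 342 and 52 in WT, where WT replicate 3 was the most deeply sequenced library. The authors' clone correction had shifted every Foxj1 value by 31.2 normalized counts, downward in clone E3 and upward in clone 1. Before that correction the KO libraries stood at 263, 327, 692 and 360 and the WT libraries at 48.6, 82.8, 151 and 68.2, again without overlap. Within days that had both genotypes, the KO library exceeded the WT library 5.74-fold on day 3 and 5.495-fold on day 4, both from clone E3, and 3.94-fold on day 5, from clone 1. Without the correction the same ratios were 3.95, 4.57 and 5.28, so the order of the days changed with the correction and the direction did not.

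Foxj1 had the highest transcript GC content of the 51 members (61.4%), and KO replicate 3, in which it was highest, held more of GC-rich and less of GC-poor transcripts than the other KO libraries. Without KO replicate 3 the Foxj1 log2 fold change was 1.88, and without both libraries of day 4 it was 2.22. With the GC trend of every library removed it was 2.01 ± 0.28 (SE). The settings without day 4 and with the GC trend removed were added after the data were seen.

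The genes of the table next to Foxj1 on chromosome 11 are Exoc7, which encodes a subunit of the exocyst, and Rnf157, which encodes a RING-type ubiquitin ligase. Exoc7 was at 945 ± 65.2 normalized counts in KO and 830 ± 83.9 in WT (SD, n = 4 each), a log2 fold change of 0.19 ± 0.13 (SE). Rnf157 was at 164 ± 62.6 in KO and 200 ± 66.9 in WT, a log2 fold change of -0.28 ± 0.34 (SE). Neither had an unadjusted limma p under 0.05 (0.176 and 0.440). The forkhead relatives Foxj2 and Foxj3 had log2 fold changes of 0.09 and -0.07 with standard errors of 0.25 and 0.11.

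**Figure D1:**
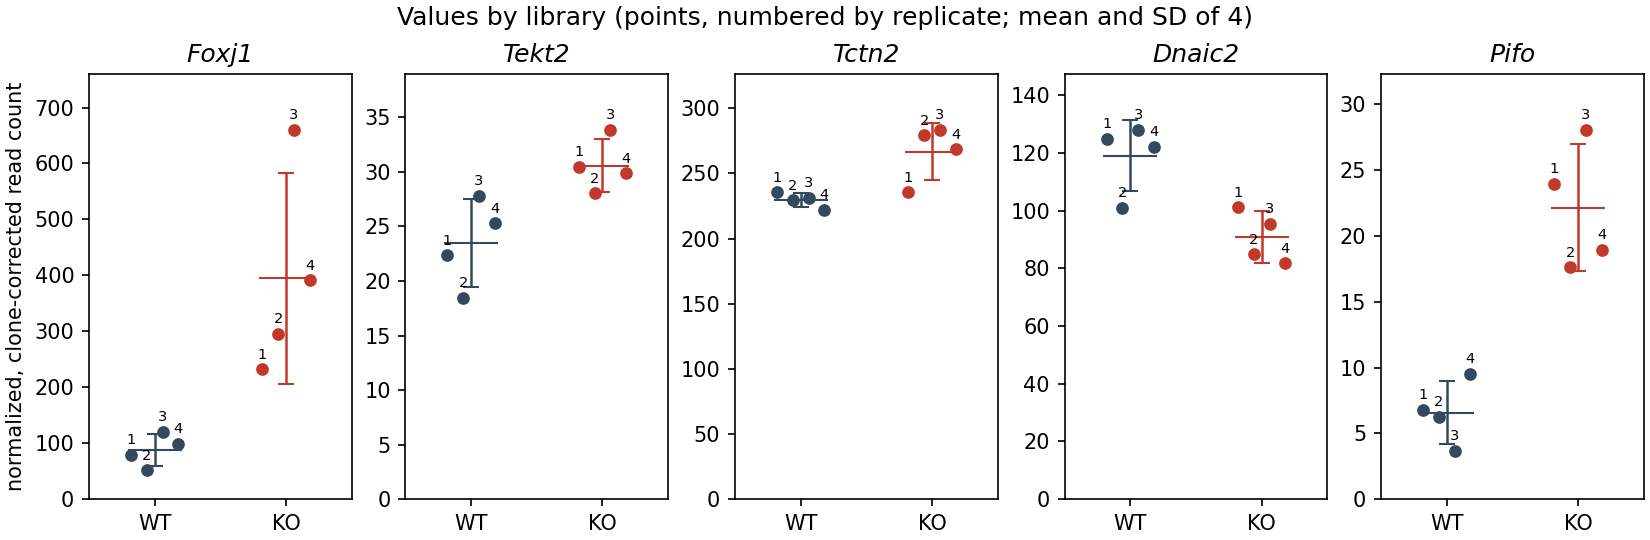
Normalized, clone-corrected read counts (y axes, each from 0) of Foxj1, Tekt2, Tctn2, Dnaic2 and Pifo in the 4 WT and the 4 KO libraries. Points are libraries numbered by replicate, and bars give the mean and SD. Foxj1 and Pifo lie far apart between the genotypes, Tekt2 and Tctn2 only just separate, and Dnaic2 touches at about 101 counts.

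The comparison of the other 50 ciliary transcripts asked whether they moved with Foxj1. At an unadjusted limma p under 0.05, 2 of the 50 differed (4.0%), against a background of 9.09% of all transcripts. Tekt2 was the 1 that rose, against 4.62% of all transcripts, and Dnaic2 was the 1 that fell, against 4.46%. The fold criterion, an unadjusted p under 0.05 together with a fold of at least 1.5, was passed by 0 of the 50, against 4.25% of all transcripts. An adjusted p under 0.05 was reached by 0 of the 50 and by 0 of all transcripts, and the smallest among the 50 was 0.487 in limma with Benjamini-Hochberg adjustment.

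In 48 of the 50 the KO and WT libraries overlapped. Tctn2 and Tekt2 were higher in every KO than in every WT library (2 of 50, 4.0%, against 5.48% of all transcripts), and 0 of the 50 were lower in every KO library, against 4.62% of all transcripts. The estimates lay above 0 for 24 and below 0 for 26 transcripts. Their median log2 fold change was -0.02, beside 0.00 over all transcripts. The median size of the change regardless of sign was 0.17, beside 0.18 over all transcripts.

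How large a change these libraries could have missed was read from the 95% intervals. The interval lay within a 1.5-fold change in both directions for 19 of the 50 and within a 2-fold change for 40. The highest upper limit was 2.05 for Tekt5, and the lowest lower limit was -2.16 for Ift74. For the other 10 members the interval reached a 2-fold change in at least 1 direction.

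With day as a replicate block over the 6 libraries of days 3, 4 and 5, the pairing described in the methods, 5 of the 50 had an unadjusted limma p under 0.05 (10%), against 19.2% of all transcripts. Tekt2 and Dnaic2 were again among them, with log2 fold changes of 0.36 and -0.41 over these 6 paired libraries and unadjusted limma p-values of 0.0358 and 0.0191. Rfx1 rose by 0.63, Tctn2 rose by 0.28 and Ift81 fell by 0.55, with unadjusted limma p-values of 0.00492, 0.0335 and 0.0454. After adjustment over all transcripts in this paired fit the smallest of the 5 was that of Rfx1 (adjusted p = 0.207) and the largest that of Ift81 (adjusted p = 0.254). Rfx1 was the 1 member past the fold criterion in that fit, against 7.49% of all transcripts. By single libraries left out of the unpaired fit, the count of 2 fell to 0 when WT replicate 1, WT replicate 4 or KO replicate 4 was missing. It rose to 4 without KO replicate 1 and to 5 without WT replicate 2. The share over all transcripts was not set beside these counts with a library left out.

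**Figure D2:**
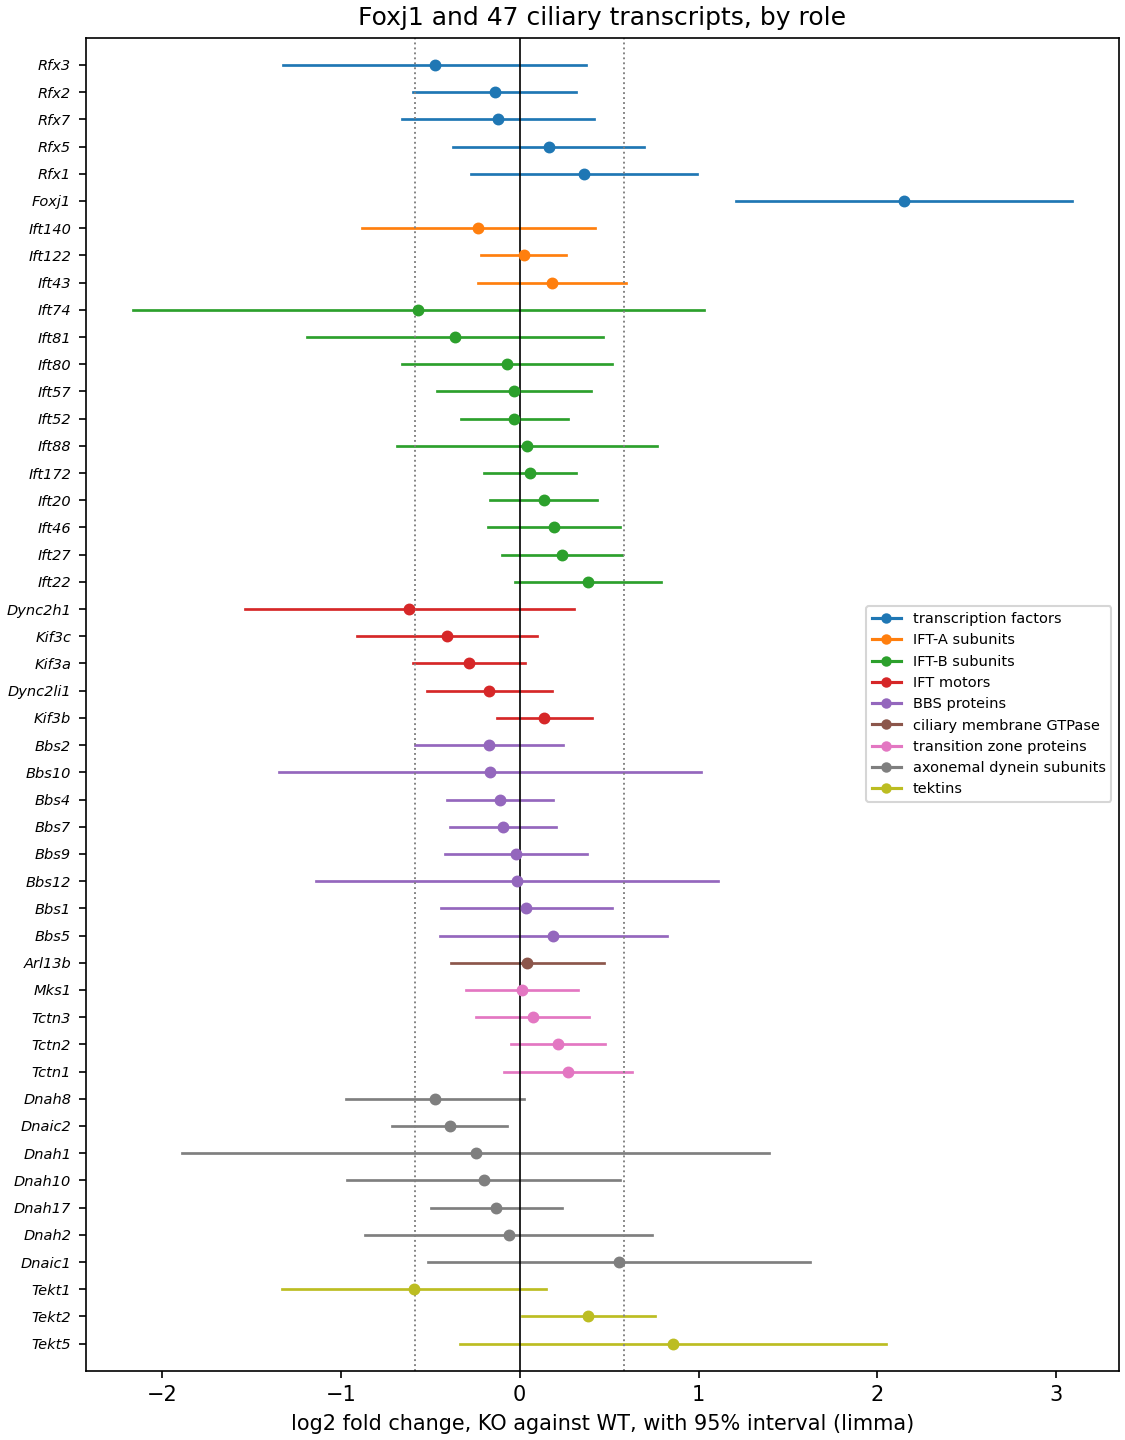
Log2 fold change of KO against WT (x axis, limma on log2 values) for 48 of the 51 members, coloured by role, with 95% intervals as bars and dotted lines at a 1.5-fold change. Foxj1 is at 2.15, while the intervals of the other 47 drawn include 0 except for Tekt2 and Dnaic2.

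Among the transcription factors, the RFX members act as the partners of Foxj1 or as regulators of other genes. Rfx1, a widely expressed member, was at 187, 366, 415 and 346 normalized counts in KO and at 260, 271, 240 and 217 in WT. KO replicate 1 was the lowest of all 8 libraries and the other 3 KO libraries were above every WT library. The log2 fold change of Rfx1 was 0.36 ± 0.27 (SE, adjusted p = 0.694 in limma), 0.58 without KO replicate 1, and 0.39 with the GC trend removed and the day block. Rfx1 was rich in GC (60.8%), like Foxj1.

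Rfx2, known for its part in ciliogenesis and spermatogenesis, was at 802, 1026, 1269 and 1093 in KO and at 1233, 979, 1374 and 1029 in WT, and the groups overlapped throughout. Rfx3, a regulator of cilia in several tissues, was at 124, 112, 48.7 and 116 in KO and at 164, 158, 129 and 91.4 in WT. It had a log2 fold change of -0.47 ± 0.36 (SE), and KO replicate 3 stood far below the other KO libraries. Rfx5, which is known for control of MHC class II genes, had a log2 fold change of 0.16 ± 0.23 (SE). Rfx7 was at 1427 ± 345 in KO and 1530 ± 200 in WT (SD, n = 4), a log2 fold change of -0.12 ± 0.23 (SE).

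The motile cilium genes among the members are the axonemal dynein subunits and the tektins, filament proteins of the axoneme. Tekt2 was at 30.5, 28.1, 33.9 and 29.9 normalized counts in KO and at 22.4, 18.5, 27.8 and 25.3 in WT. All KO libraries were above all WT libraries, but the nearest pair differed by less than 1 count. Its log2 fold change was 0.38 ± 0.16 (SE), with an unadjusted limma p of 0.0442 and an adjusted one of 0.541. An exact two-sided permutation test gave p = 0.0286, which no arrangement of 4 against 4 libraries can go below. Only 7 to 49 reads lay behind these values. With the clone correction undone the groups overlapped and the limma p was 0.0542, and on recovered reads in voom it was 0.204. Leaving out any single library except WT replicate 3 also took the p above 0.05, up to 0.166 without WT replicate 2. The exons of Tekt2 overlap Gm12945 on the opposite strand, and the library kit does not mark strand.

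Tekt1 was at 20.04, 32.7, 19.8 and 13.0 in KO and at 43.4, 31.1, 22.9 and 27.3 in WT, so the groups overlapped. With a log2 fold change of -0.59 ± 0.31 (SE) it was the member just past the 1.5-fold line of 0.585, and its unadjusted limma p was 0.101. Tekt5 was the lowest of all members, at 13.6, 9.65, 4.58 and 13.8 in KO and at 1.64, 9.69, 4.42 and 5.67 in WT. It had the largest estimate among the 50, 0.86 with a standard error of 0.51, from 3 to 13 reads per library, and an adjusted p = 0.643 in limma. The 3 tektins therefore had estimates of both signs.

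Dnaic2, an intermediate chain of the outer dynein arm, was at 101.1, 84.8, 95.4 and 81.7 in KO and at 124.8, 101.0, 128.0 and 122.1 in WT. KO replicate 1 and WT replicate 2 met at the edge, and the remaining libraries were separate. Its log2 fold change was -0.39 ± 0.14 (SE), with an unadjusted limma p of 0.0241 and an adjusted one of 0.487, and KO was below WT on each of days 3, 4 and 5. Leaving out 1 library at a time took the unadjusted p past the threshold for WT replicates 1, 3 and 4 (0.0535, 0.0810 and 0.0554) and for KO replicates 2 and 4 (0.0613 and 0.159). Dnaic2 lies on chromosome 11 from 114721341 to 114757889.

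Dnaic1, the other outer arm intermediate chain, was at 42.9, 19.7, 69.6 and 54.4 in KO and at 22.2, 20.6, 48.1 and 31.1 in WT, and the groups overlapped. Its log2 fold change was 0.55 ± 0.45 (SE), so the pair of intermediate chains had estimates of opposite sign. The 5 dynein heavy chains (Dnah1, Dnah2, Dnah8, Dnah10 and Dnah17) had estimates from -0.47 to -0.06. Of them 0 had an unadjusted limma p under 0.05, against 9.09% of all transcripts. The widest spread was in Dnah1, an inner arm heavy chain, at 34.5, 28.2, 109 and 42.0 in KO and at 96.0, 16.9, 116 and 59.8 in WT. Its highest values were those of the day 4 libraries in both genotypes.

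IFT moves cargo along the axoneme, IFT-B with kinesin-2 toward the tip and IFT-A with dynein-2 back to the base. Of 11 IFT-B subunits, 0 had an unadjusted limma p under 0.05, against 9.09% of all transcripts. At that share a count of 0 in so small a set says little. Their median log2 fold change was 0.04. Ift46 was the most abundant of the 51 members, at 2624, 2167, 2806 and 2605 normalized counts in KO and at 2082, 1888, 2657 and 2353 in WT, with overlap and a log2 fold change of 0.19 ± 0.16 (SE). Ift22, a small GTPase of the complex, had the highest estimate of the subunits, 0.38 ± 0.17 (SE, adjusted p = 0.565 in limma).

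Ift74, a core subunit, was at 324, 246, 40.4 and 216 in KO and at 265, 380, 160 and 255 in WT. KO replicate 3 set its estimate: the log2 fold change was -0.57 ± 0.68 (SE) over all libraries, just short of the 1.5-fold line, and 0.01 without that library. Its partner Ift81 was likewise lowest in KO replicate 3, at 108 against 214 to 332 in the other KO libraries, and its estimate moved from -0.36 to -0.08 without it. The 3 IFT-A subunits Ift43, Ift122 and Ift140 had estimates of 0.18, 0.02 and -0.23. Of them 0 had an unadjusted limma p under 0.05, against 9.09% of all transcripts. Ift140 was at 418, 498, 803 and 545 in KO and 752, 464, 851 and 605 in WT, again highest in the day 4 libraries.

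Of the 5 IFT motor transcripts, 0 had an unadjusted limma p under 0.05, against 9.09% of all transcripts, and 4 of 5 estimates were below 0. Dync2h1, the heavy chain of dynein-2, was at 142, 183, 61.7 and 151 in KO and at 226, 277, 145 and 162 in WT. The log2 fold change of Dync2h1 was -0.62 ± 0.39 (SE, adjusted p = 0.659 in limma), and the groups overlapped. The kinesin-2 subunits Kif3a, Kif3b and Kif3c had estimates of -0.28, 0.14 and -0.41 with standard errors of 0.13, 0.11 and 0.21.

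The BBS proteins form the BBSome, a coat that carries membrane proteins out of and into the cilium, and its chaperonin-like assembly factors. Their 8 transcripts had estimates from -0.17 for Bbs2 to 0.19 for Bbs5, and their smallest unadjusted limma p was 0.359. Bbs5 was at 195, 143, 89.5 and 158 in KO and at 110, 157, 106 and 130 in WT, with overlap. Bbs10 and Bbs12, both chaperonin-like, were lowest in the day 4 library of each genotype: Bbs10 at 36.7 in KO replicate 3 and 56.3 in WT replicate 3, and Bbs12 at 31.4 and 34.0. Arl13b, a GTPase of the ciliary membrane, was at 380, 345, 248 and 358 in KO and at 286, 294, 374 and 331 in WT, with a log2 fold change of 0.04 ± 0.18 (SE).

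The transition zone is the gate at the base of the cilium. All 7 of its transcripts among the members had estimates above 0, from 0.01 for Mks1 to 0.27 for Tctn1, with a median of 0.10. Of the 7, 0 had an unadjusted limma p under 0.05, against 9.09% of all transcripts. The 27 other transition zone and basal body genes described below had a median log2 fold change of -0.12. Tctn2, a tectonic, was at 235.6, 279.3, 283.5 and 268.5 in KO and at 235.3, 229.4, 231.4 and 222.0 in WT. KO replicate 1 cleared WT replicate 1 by less than 1 count, while the other 3 KO libraries lay clearly above the WT range. The log2 fold change was 0.21 ± 0.11 (SE), with an unadjusted limma p of 0.0970 and an adjusted one of 0.607. An exact two-sided permutation test gave p = 0.0286, which only restates that the groups did not overlap. Tctn2 was also without overlap before the clone correction. Within days 3, 4 and 5 the ratios of KO to WT were 1.22, 1.23 and 1.21. Without KO replicate 1 the unadjusted limma p was 0.0412. Tctn1 was at 343, 313, 404 and 369 in KO and at 270, 258, 348 and 313 in WT (adjusted p = 0.638 in limma).

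Levels can be compared between genes only per length. Per kilobase of transcript, the mean over all 8 libraries ran from 3.21 normalized counts for Dnah17 to 575 for Ift46, with a median of 85.3. The axonemal dynein subunits had a median of 13.5 and the tektins of 18.1 normalized counts per kilobase, against 110 for IFT-B subunits, 147 for IFT-A subunits and 58.9 for BBS proteins. Foxj1 ranked 36 of 51 per kilobase in WT and 13 of 51 in KO. The genes for motile cilia thus stood at the low end of the levels in both genotypes, as the plot of levels per kilobase shows.

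**Figure D3:**
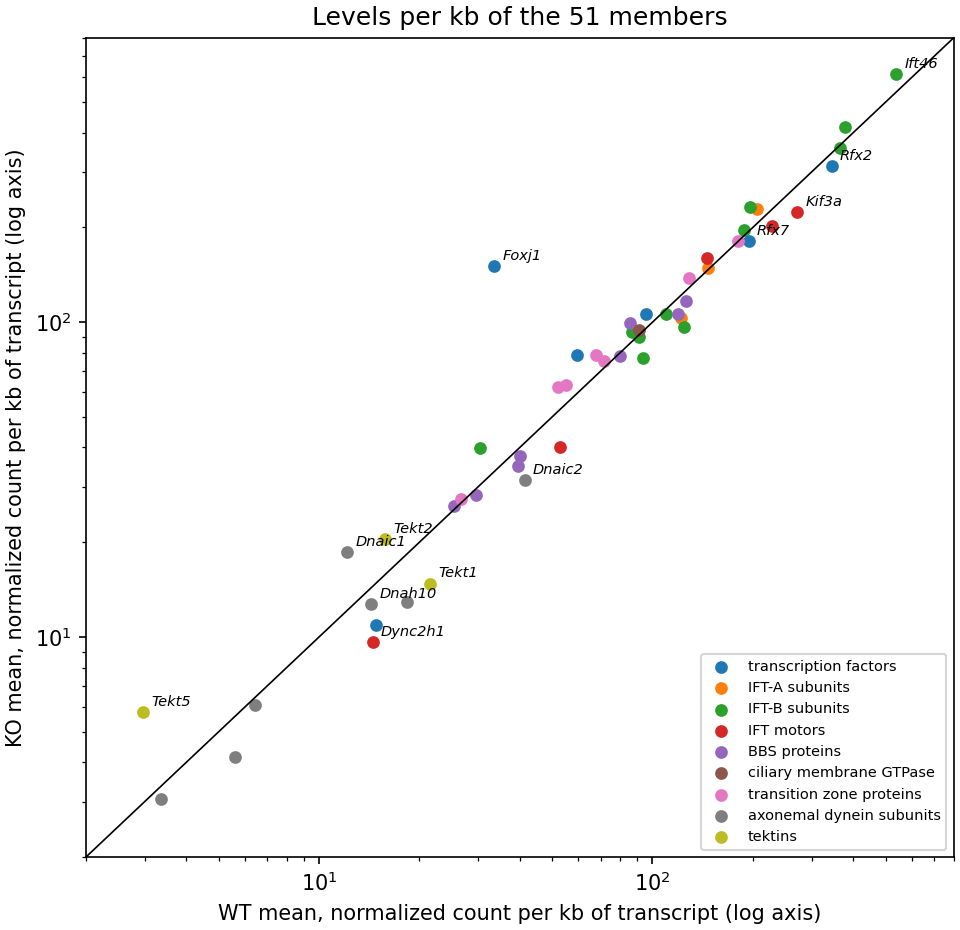
Mean normalized count per kilobase of transcript in WT (x axis) and KO (y axis), both log axes, for the 51 members coloured by role, with the line of equality. Foxj1 is the point farthest above the line, and the dynein subunits and tektins lie at the lower left.

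The members also varied between libraries of the same genotype. KO replicate 3 was the lowest of all 8 libraries for 19 of the 51 members and the highest for 12. Its deviations from the other KO libraries had a Spearman rho of 0.78 with transcript GC content over the 51 members and of 0.64 over 12936 transcripts. In KO replicate 1 the rho over the members was -0.78 and in WT replicate 3 it was 0.47. These are descriptions across genes, which share their libraries. The log2 fold changes of the 50 also followed GC content, with a rho of 0.31 (0.36 over 12936 transcripts), and with the GC trend of each library removed this rho was 0.04. With that trend removed, 3 of the 50 had an unadjusted limma p under 0.05: Dnaic2 (-0.455), Tekt2 (0.34) and Bbs5 (0.42), and the smallest of their adjusted p-values was 0.357. The share over all transcripts in that fit was not set beside this count.

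**Figure D4:**
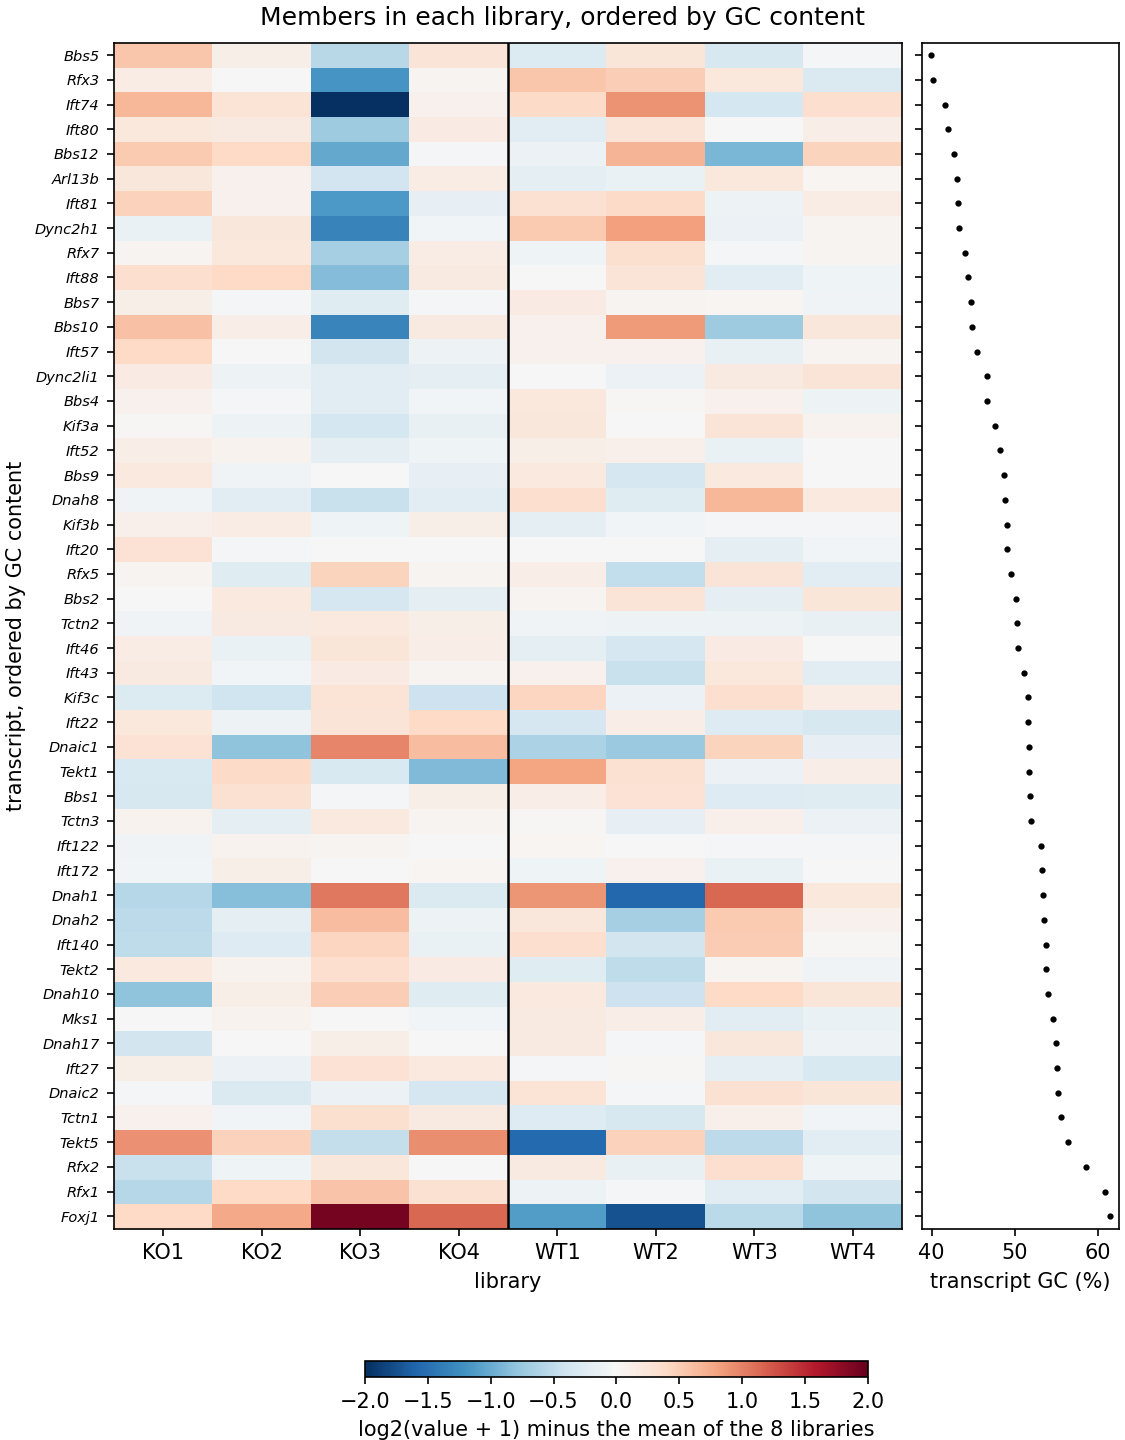
Deviation of log2(value + 1) from the mean of the 8 libraries (colour, from -2 to 2) for 48 of the 51 members, ordered from the lowest (39.9%, Bbs5) to the highest GC content (61.4%, Foxj1), with GC content at the right. KO replicate 3 is low for GC-poor members such as Ift74 and Dync2h1 and high for GC-rich ones, and Foxj1 is higher in every KO than in every WT library.

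Of the 7 members with an X-box, 1 rose (Tekt2) and 1 fell (Dnaic2) at an unadjusted limma p under 0.05. The shares among all transcripts were 4.62% and 4.46%. The estimates of the 7 ran from -0.39 to 0.55. Their median log2 fold change was 0.01, beside -0.02 for the 37 other members with a promoter. The X-box member Mks1, whose letters are printed above, was at 452 ± 16.0 in KO and 450 ± 59.4 in WT (SD, n = 4).

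Other genes of the cilium, taken by function under other symbols, were examined on the same fit. Of 33 motile cilium genes measured, 3 rose and 2 fell past the fold criterion, against 1.76% higher and 2.49% lower among all transcripts, and their median log2 fold change was -0.03. Pifo, which encodes pitchfork, a protein linked to cilium disassembly, changed most. It was at 24.0, 17.6, 28.1 and 19.0 normalized counts in KO and at 6.81, 6.28, 3.67 and 9.54 in WT. Every KO library held more than every WT library. The log2 fold change was 1.71 ± 0.27 (SE), the unadjusted limma p was 0.000337, and the exact permutation test, again two-sided, gave p = 0.0286. The limma p stayed under 0.05 in all 21 fits that included it, but adjusted over all transcripts it was 0.294. Fewer than 40 reads lay behind each value, and before the clone correction the same-day ratios were 2.08, 4.06 and 2.80.

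Wdr78, an axonemal dynein-associated protein, was at 41.7, 29.7, 24.3 and 47.4 in KO and at 8.15, 24.5, 20.6 and 13.7 in WT, overlapping by a narrow margin in KO replicate 3 and WT replicate 2. It rose by a log2 fold change of 1.03 ± 0.36 (SE), with an unadjusted limma p of 0.0247 and an adjusted one of 0.487. The unadjusted p was above 0.05 without KO replicate 4 (0.181) or KO replicate 1 (0.0555), and with the replicate block by day (0.101). Ccdc103, a factor for dynein arm attachment, rose by 0.65 ± 0.24 (SE), with an unadjusted limma p of 0.0281 (adjusted 0.496). WT replicate 2 held 19.1 against 9.91 to 11.3 in the other WT libraries, and the unadjusted p was 0.205 without KO replicate 4, 0.102 without WT replicate 3 and 0.0691 with the replicate block. Spag16 and Hydin, proteins of the central pair of microtubules, fell by 0.69 each, with unadjusted limma p-values of 0.0325 and 0.0413 (adjusted 0.516 and 0.534). The unadjusted p-values were 0.0626 and 0.0526 with the replicate block, 0.0944 and 0.289 without KO replicate 4, and above 0.05 without most other single libraries. The exons of Ccdc103 overlap Fam187a, those of Wdr78 overlap Mier1 and those of Hydin overlap Gm26832, so their reads may be shared. The motile genes past the criterion thus moved both ways.

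Of 9 genes measured from the gene programme of multiciliated cells, Myb was the 1 that passed the fold criterion, and it fell. Among all transcripts 2.49% fell past that criterion. Myb encodes a transcription factor that is also known from proliferating progenitors. It was at 232, 180, 180 and 162 normalized counts in KO and at 410, 370, 284 and 297 in WT, and every KO library was below every WT library. The log2 fold change was -0.86 ± 0.18 (SE) (unadjusted limma p = 0.00206, adjusted 0.416, exact permutation p = 0.0286), and its unadjusted limma p stayed under 0.05 in all 22 fits. Its exons overlap Gm26577. Trp73, another factor of this programme, had a log2 fold change of 0.30 ± 0.27 (SE), and Ccno, of the centriole amplification step, one of -0.11 ± 0.43 (SE). E2f4 was higher in every KO than in every WT library, with a log2 fold change of 0.19 ± 0.11 (SE). Plk4 was lower in every KO library, with one of -0.395 ± 0.19 (SE). Their unadjusted limma p-values were 0.122 and 0.0803, and both were also without overlap before the clone correction. Over the 9 of 14 listed genes that were measured, the median log2 fold change was -0.17. With the replicate block by day, 1 of the 9 was higher at an unadjusted limma p under 0.05 (Foxn4, 0.50). In that fit 2 were lower (Myb, -0.85, and Cep63, -0.34), against 19.2% of all transcripts called. Without the block the log2 fold change of Foxn4 was 0.02 ± 0.51 (SE). Mcidas, Gmnc, Cdc20b, Ccdc67 and Noto were not analysed here.

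The remaining lists held few genes past a threshold. Among all transcripts, 4.62% rose and 4.46% fell at an unadjusted limma p under 0.05. The fold criterion was passed upward by 1.76% and downward by 2.49% of them. Of 15 IFT subunits under other symbols, 1 had an unadjusted p under 0.05: Wdr34, an intermediate chain of dynein-2, rose by 0.30 ± 0.11 (SE, adjusted p = 0.491) and was higher in every KO library than in any WT library. Of 16 genes for BBSome partners and ciliary cargo traffic, Trim32 (also known as BBS11) rose by 0.42 ± 0.13 (SE, adjusted p = 0.457) at that threshold, and Gpr161, a ciliary receptor that restrains Hedgehog signalling, fell by 0.66 ± 0.25 (SE, adjusted p = 0.516). Gpr161 was the 1 of them past the fold criterion. Its value rested on 13.6 to 32.1 normalized counts, and its unadjusted p of 0.0337 became 0.172 with the replicate block, and 0.132 and 0.121 without KO replicate 4 and WT replicate 2. Of 27 transition zone and basal body genes, B9d1 rose by 0.41 (adjusted p = 0.486) and Ttbk2, a kinase that starts ciliogenesis, fell by 0.46 (adjusted p = 0.452), both past the unadjusted threshold in limma and neither past the fold criterion.

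Hedgehog signalling in vertebrates runs through the primary cilium. Of 15 of its genes measured, 2 fell and 0 rose at an unadjusted limma p under 0.05, against 4.46% and 4.62% of all transcripts. Gli3, a transcription factor of the pathway, was at 169, 217, 199 and 199 in KO and at 308, 295, 250 and 231 in WT, a fall of 0.46 on the log2 scale (standard error 0.15, adjusted p = 0.468 in limma). Every KO library was below every WT library, but before the clone correction KO replicate 4 (228) lay above WT replicate 3 (220). Hhip, a target and inhibitor of the pathway, fell by 1.13 ± 0.46 (SE, adjusted p = 0.541 in limma). Its unadjusted limma p of 0.0442 became 0.179 without KO replicate 4, 0.107 without WT replicate 2, 0.0893 without KO replicate 3 and 0.0564 without WT replicate 3. With the replicate block by day the unadjusted limma p of Hhip was 0.0105, and it was under 0.05 in 14 of 21 fits. Of 7 cilium disassembly genes, 0 had an unadjusted limma p under 0.05, against 9.09% of all transcripts. With the replicate block by day, 6 of the 33 motile cilium genes (1 higher and 5 lower in KO), 5 of the 27 transition zone and basal body genes (all lower) and 4 of the 15 Hedgehog genes (1 higher and 3 lower) had an unadjusted limma p under 0.05, against 19.2% of all transcripts in that fit.

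Markers of other cell types that SSEA-1 enrichment could leave were read beside Foxj1. The summed value of the 6 primitive endoderm markers was 246 to 542 in KO and 81.5 to 439 in WT, and of the 5 trophectoderm markers measured 1400 to 2128 in KO and 666 to 2062 in WT. Gata6, Sox17 and Foxa2 were at the floor of 1 in WT replicate 1, and Foxa2 also in WT replicate 4. Before the clone correction Gata6 stood at 15.1 in WT replicate 1, from 18 reads, and Sox17 at 0.838. Before the correction the sum over the primitive endoderm markers other than Foxa2 was 116 to 640 in KO and 155 to 484 in WT, and the trophectoderm sum was 1020 to 2508 in KO and 1041 to 2442 in WT. At an unadjusted limma p under 0.05, 0 of 6 primitive endoderm, 0 of 5 fibroblast and 1 of 5 trophectoderm markers (Eomes, 0.51) differed. Over all transcripts 9.09% differed. With the replicate block by day these counts were 2 of 6, 1 of 5 and 2 of 5, against 19.2% of all transcripts in that fit. Pdgfra (-0.68), which is on the primitive endoderm and fibroblast lists, and Dab2 (-0.75) were lower in KO. Eomes (0.44) and Cdx2 (0.91) were higher. The primitive endoderm markers Gata4, Gata6, Sox17 and Foxa2 went the other way from Pdgfra and Dab2, each with an unadjusted limma p above 0.05. Their estimates in that fit ran from 0.57 (Gata4) to 1.27 (Gata6). In the unpaired fit, floor values included, the primitive endoderm list had a median log2 fold change of 1.33. Cdx2, a trophectoderm factor, was at 20.2, 27.9, 19.7 and 35.9 in KO and at 1.00, 14.8, 14.4 and 12.8 in WT, without overlap (adjusted p = 0.591 in limma, exact permutation p = 0.0286). Before the clone correction the Cdx2 values overlapped, with WT replicate 4 at 22.3 above KO replicates 1, 2 and 3 (10.7, 18.4 and 10.2). The 5 fibroblast markers summed to 183 to 329 in KO and 216 to 313 in WT. Of 4 neural progenitor markers measured, which summed to 1170 to 1493 in KO and 959 to 1180 in WT, Nes fell by 0.50 (adjusted p = 0.460 in limma) and Olig2 rose by 0.68 (adjusted p = 0.424), both past the unadjusted threshold. Olig2 was at 841, 899, 1062 and 1111 in KO and at 519, 643, 695 and 553 in WT, and its unadjusted limma p stayed under 0.05 in all 22 fits. The part of these cells in the Foxj1 difference was not tested, and in bulk RNA more cells with Foxj1 and more Foxj1 RNA per cell cannot be told apart.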

How the data were processed

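The deposited values are a signal, not raw counts. The authors aligned reads to mm10 and counted reads per RefSeq transcript, and normalized the counts with DESeq2. They then corrected for batch in Partek, set values under 1 to 1, and kept transcripts whose higher group mean was at least 10. Per the submitters' processing notes, CASAVA 1.8, Bowtie2 2.2.1 and Partek 6.6 were used.

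The authors' correction had subtracted a clone effect, fitted with genotype on the linear scale. To undo it, each value was written as a read number scaled by a library factor and moved by a clone shift of its transcript, which gave whole reads for 13530 of 13558 transcripts (99.8%). From these reads, 100.0% of the deposited values of those transcripts were rebuilt. A test on simulated data of 3979 transcripts recovered 99.9%. Reads are per deposited transcript only, and no interval for counting error was computed.

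KO and WT were compared in a limma model (version 3.58.1, R 4.3.3) of log2(value + 1) on genotype plus clone, over all 13558 transcripts, with Benjamini-Hochberg adjustment over all of them. Fold changes on this scale understate the change of low transcripts. In data simulated for this comparison over 13530 transcripts with a dispersion of 0.1, 190 of 200 transcripts changed by 2 on the log2 scale were called at an adjusted p under 0.05, and 1 other. The simulated libraries had no day pairing and no trend with GC content, so this rate does not carry over to the real ones. In the real data 0 transcripts reached an adjusted p under 0.05. Trim71 itself, with a log2 fold change of -2.39, had an adjusted p of 0.294 in limma. Single values without overlap were also compared by exact two-sided permutation over the 70 assignments of labels, whose smallest p is 0.0286. Every transcript without overlap gets this p, so it only restates the separation and adds no further evidence. Alternatives were another pseudocount, filters, no clone term, the linear scale, the correction undone, voom on recovered reads, a replicate block by day, and each library left out. Further alternatives, chosen after seeing the data, left out day 4, combined the undone correction with the block, or removed the lowess trend of each library with transcript GC content (12936 transcripts).

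Days 3, 4 and 5 in the labels each hold 1 KO and 1 WT library. With the correction undone, the deviations of these 3 pairs from their group means correlated at 0.52 to 0.63 over all transcripts, against a median of -0.18 over the 13 other pairs, so day was taken to pair them. In the deposited values the 3 correlations ran from -0.23 to 0.54.

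The members and gene lists were chosen with earlier results of these data known. Named were Foxj1, members with an unadjusted p under 0.05 or no overlap, the 3 highest and 3 lowest means, the RFX members, the largest change in each role, the members nearest the 1.5-fold line, list genes past the fold criterion and the neighbours of Foxj1. Other genes named were chosen after their values were seen. Values of 3 members, which count in the totals, are not reported here one by one. Transcript lengths and GC content came from GENCODE vM21, and positions and promoters from RefSeq (GRCm38.p6). The exons of 16 of 51 members overlap another gene, and strand is not marked by the kit. Python 3.11.15 with numpy, pandas, scipy and matplotlib did the other steps.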

Additional observations from a re-analysis of the deposited data

Results flagged for a closer look

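Among 30 named transcripts, each with a KO and a WT group of 4 libraries, 3 values stood apart from the others of their group by Dixon's test, where chance gives about 1 in 20 groups. Rfx3 in KO replicate 3 was at 48.7 normalized counts against 112 to 124 in the other KO libraries. Hydin in WT replicate 1 was at 114.7 against 78.7 to 83.3, and Ccdc103 in WT replicate 2 was at 19.1 against 9.91 to 11.3.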

How the results depend on the processing

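The Foxj1 log2 fold change stayed between 1.83 and 2.46 in the 21 alternatives, with both ends from leaving out a WT library (replicates 2 and 3). Of the 50 ciliary transcripts, 2 had an unadjusted p under 0.05. This count was 1 with a pseudocount of 10, a mean of at least 50 or the clone correction undone, 6 with no clone term and 4 on untransformed values or without the day 4 libraries. It was 5 with the replicate block by day (pairing the libraries of days 3, 4 and 5), 5 with the block and the GC trend removed, 4 with the block and the correction undone and 8 when voom was fitted with the block. Leaving out 1 library gave 0 to 5. Among all transcripts 9.09% had such a p in the main fit and 19.2% with the replicate block. For the other settings no share over all transcripts is given, here or for the counts below. A higher count there is therefore not read as more change. The count past the fold criterion was 0, and 1 with voom on recovered reads or with the replicate block (with or without the clone correction), 4 with voom and the block, and 0 to 2 with 1 library left out (2 without KO replicate 2 or WT replicate 2). An adjusted p under 0.05 was reached by 0 of the 50 in every setting. The count of members without overlap was 2, 1 with the correction undone and 5 without day 4. Without day 4 each group held fewer libraries, and smaller groups separate more easily. The share over all transcripts was not set beside that count, so it is not read as more separation. The median log2 fold change was -0.043 to 0.038 with 1 library left out. For the other cilium lists the count past the criterion was 8, 5 with a pseudocount of 10, 2 with a mean of at least 50, 4 with voom, 3 on untransformed values and 2 to 9 with 1 library left out. It was 9 with no clone term, 10 with voom and the block, and 7 or 8 in the other settings.

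Some estimates changed sign. With the replicate block they were 0.013 for Rfx2, -0.033 for Bbs5 and -0.083 for Arl13b, and 0.018, -0.040 and -0.102 with the correction also undone. With voom and the block they were 0.011, -0.053 and -0.161, and Arl13b was at -0.018 with voom alone. With 1 library left out Rfx7 ran from -0.279 to 0.053, Rfx2 from -0.252 to 0.006, Rfx5 from -0.045 to 0.344, Ift74 from -0.883 to 0.009 and Arl13b from -0.054 to 0.165. The causes were not tested. Of 557 values for single named transcripts, 436 kept direction and side of the threshold, 78 were no longer past it, 24 moved past it and 19 changed sign. Tekt5 rested on only 3 to 13 reads per library, and members with more reads could vary more, such as Ift74 (SE 0.68 against 0.51).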
